A study of Mus musculus with 4 samples.

Results

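At 51 places away from gene ends, open chromatin that formed 1 peak in each control library of B16F10 cells was called as 2 separate peaks in each library of cells given a guide against Arid1a. These 51 regions are the subject here, out of 103629 regions made by merging overlapping peaks of the 4 deposited lists, 88147 of which lay over 1 kb from every end of a protein-coding gene and are called distal. A region was taken when each sgScramble list had exactly 1 peak in it and each sgArid1a list had at least 2. The regions were thus chosen by the peak counts and positions of all 4 lists, and the pattern is a description with no test.

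B16F10 is a mouse melanoma line, profiled by ATAC-seq, an assay that inserts sequencing adapters into accessible DNA with a transposase. The groups were cells with a scrambled guide RNA (sgScramble, replicates 1 and 2) and cells with a guide RNA against Arid1a (sgArid1a, replicates 1 and 2). The labels give no other genotype, treatment or time, and do not say whether the guided cells were a clone or a pool. Nothing states that replicates were separate cultures, so their spread may be technical. A peak within 1 kb of a gene end was found in all 4 lists at 7 of 7 melanocyte genes (Mitf, Sox10, Tyr, Tyrp1, Dct, Pmel and Mlana). Of 6 genes of other cell types, Cd79a had such a peak in all 4 lists, Cd3e in 2 lists, and Ptprc, Epcam, Krt5 and Pecam1 in none.

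ARID1A is a DNA-binding subunit of BAF, a SWI/SNF complex that uses ATP to slide and evict nucleosomes. The complex works at many enhancers, the distal elements at which transcription factors open chromatin over a core flanked by nucleosomes. In ATAC-seq, a wide enhancer can appear as 1 broad peak or as several summits with weaker signal between them, and a broad-peak caller joins neighbouring summits when they lie close enough or when the signal between them passes a weaker threshold.

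For 4 of the 51 regions, bases of the region itself could be read, since RefSeq (GRCm38.p6) places a transcript start there and gives the sequence before it. They are shown because they hold the annotated starts that the broken peaks cover, and because 1 of them lies in the part that was uncovered in both sgArid1a lists. Each line gives the 250 bases before a start, 5′ to 3′ on the strand of the gene. The capitals mark matches to the motifs searched, on either strand.
Gm31812: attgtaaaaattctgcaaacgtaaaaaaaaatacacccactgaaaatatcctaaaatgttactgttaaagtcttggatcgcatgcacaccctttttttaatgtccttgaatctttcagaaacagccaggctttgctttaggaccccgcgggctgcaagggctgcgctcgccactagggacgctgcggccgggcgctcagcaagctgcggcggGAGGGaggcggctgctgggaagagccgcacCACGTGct
Csrp1: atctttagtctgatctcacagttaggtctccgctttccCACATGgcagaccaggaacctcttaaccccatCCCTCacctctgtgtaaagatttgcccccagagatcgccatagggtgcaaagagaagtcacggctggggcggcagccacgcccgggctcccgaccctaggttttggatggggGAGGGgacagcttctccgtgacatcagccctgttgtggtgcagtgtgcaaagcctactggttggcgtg
Gm35223: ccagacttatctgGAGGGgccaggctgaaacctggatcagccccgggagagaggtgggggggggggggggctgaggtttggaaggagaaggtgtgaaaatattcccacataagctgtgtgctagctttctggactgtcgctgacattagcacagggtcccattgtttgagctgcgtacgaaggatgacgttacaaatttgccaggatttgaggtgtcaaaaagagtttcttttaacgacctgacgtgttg
Dusp16: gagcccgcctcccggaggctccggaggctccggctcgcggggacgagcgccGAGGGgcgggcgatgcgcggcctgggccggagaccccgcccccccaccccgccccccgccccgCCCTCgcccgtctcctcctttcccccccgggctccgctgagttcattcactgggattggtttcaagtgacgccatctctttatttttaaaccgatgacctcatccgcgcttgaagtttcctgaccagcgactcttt
1700055D16Rik: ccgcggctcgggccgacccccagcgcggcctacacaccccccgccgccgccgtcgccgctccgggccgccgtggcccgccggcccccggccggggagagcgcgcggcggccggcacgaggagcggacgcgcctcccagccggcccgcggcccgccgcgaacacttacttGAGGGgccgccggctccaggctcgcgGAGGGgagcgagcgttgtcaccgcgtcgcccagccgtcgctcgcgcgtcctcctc

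The Gm31812 start (chr1:52113891-52114140, minus strand) belongs to a lncRNA in the region near Stat4, and the Csrp1 start (chr1:135728917-135729166, plus strand) is an internal start of that gene. The starts of Dusp16 (chr6:134792629-134792878, minus strand) and of the lncRNA 1700055D16Rik (chr6:134792110-134792359, plus strand) share 1 region inside Dusp16. At all 4 of these, peaks covered 250 of 250 bases in every library, so the starts lay under a piece that was kept. The sequence of the lncRNA Gm35223 (chr5:28123916-28124165, minus strand), in the region near En2, was the other case. There, peaks covered 250 bases in sgScramble replicate 2 and 0 bases in sgScramble replicate 1 and in both sgArid1a lists, and all 250 bases fell in the shared gap.

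The sequences in kept pieces ranged from 52% to 82.4% G or C, and that of Gm35223 had 52%, beside a median of 52.4% over the 32851 RefSeq promoter windows of that length. The 1700055D16Rik window held 48 CpG dinucleotides, the Dusp16 window 27, Gm31812 15, Csrp1 9 and Gm35223 7. The median promoter held 6. The AP-1 motif TGANTCA (in 6.75% of all promoters), the TEAD motif GGAATG (12.6%) and the SOX motif ACAAAG (16.5%) had no match in these 5 windows. The E-box CACGTG (6.02% of promoters) matched once, in Gm31812, and CATGTG (12.3%) once, in Csrp1. CCCTC, part of the CTCF motif (60.5%), matched in all 5. No motif overlapped another, and a match is only a match of letters.

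The lists set a lower limit on what can count as broken. The smallest distance between neighbouring peaks of a list was 966 and 931 bp in sgScramble replicates 1 and 2, and 908 and 983 bp in sgArid1a replicates 1 and 2. No list held a shorter break, at these regions or elsewhere. A break here is therefore an uncovered stretch of about 1 kb or more, and shorter interruptions of signal were not detectable in these lists.

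The broken pattern was rare. It was found at 51 of the 39727 distal regions with 1 peak in each sgScramble list and at least 1 in each sgArid1a list, or 0.128%. The reverse pattern, with 1 peak in each sgArid1a list and at least 2 in each sgScramble list, was found at 35 of 39597 regions, or 0.0884%. The rule used both contrasts. In a bulk culture, fewer cells with a stretch open and less opening in each cell cannot be told apart. The order of these counts was not stable. It turned with peaks of a −log10 q of at least 5 (9 broken against 15 reverse), with regions merged within 1 kb (61 against 102), with only the stronger 50% of peaks by fold (0 against 1) and without sgScramble replicate 1 (76 against 104).

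What lay behind the count differed between the 2 patterns. In 46 of the 51 broken regions (90.2%, 95% interval 78.6% to 96.7%), each sgScramble peak by itself crossed the gap and overlapped both pieces of each sgArid1a list, in some regions only in part. In the other 5, near Gabrr3, En2, Slc35c1, Auts2 and Cfap54, only 1 of the sgScramble peaks did so. Of the 35 reverse regions, 10 (28.6%, 14.6% to 46.3%) had a single sgArid1a peak in both lists that overlapped the sgScramble pieces on both sides. In 22 reverse regions 1 sgArid1a peak did so and the other covered less, and in 3 neither did. The crossing peak was in sgArid1a replicate 2 at 28 of the 35 and in sgArid1a replicate 1 at 14. Counting only regions crossed in both lists gave 46 broken against 10 reverse. That order was kept in 15 of 16 other settings, among them lists of equal length (39 against 5). The exception was the setting with the stronger 50% of peaks by fold, which left 0 of each. Joining peaks under 200 or 500 bp apart could not change the counts, merging within 1 kb left 46 and 10, and equal lengths dropped weak peaks without calling peaks anew. All these settings re-count the lists by which the regions were chosen, so the tally is not independent support. Fewer regions could show the reverse. A stretch of at least 1598 bp common to both single peaks was found at 3113 distal regions for sgScramble and 1760 for sgArid1a. Of these, 47 (1.51%) were broken and 11 (0.625%) the reverse, whether crossed in both lists or not. The limit of 1598 bp was the shortest such stretch among the 46 broken regions crossed in both lists. It was thus set by the broken regions and favours their share.

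The profile over the gap redraws this difference from the same lists and adds no separate support. In a shared gap, the rule leaves no peak in the lists with 2 pieces and at least 1 peak in the other group. At the centre of the shared gap, a peak was called at 49 of 50 broken regions in sgScramble replicate 1 and at 47 of 50 in sgScramble replicate 2. In the reverse regions, the same point was under a peak at 31 of 35 in sgArid1a replicate 2 and at 14 of 35 in sgArid1a replicate 1. At 1000 bp to either side of the centre of the broken regions, peaks covered 64% of regions on both sides in sgArid1a replicate 1 and 70% and 76% in sgArid1a replicate 2.

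**Figure D1:**
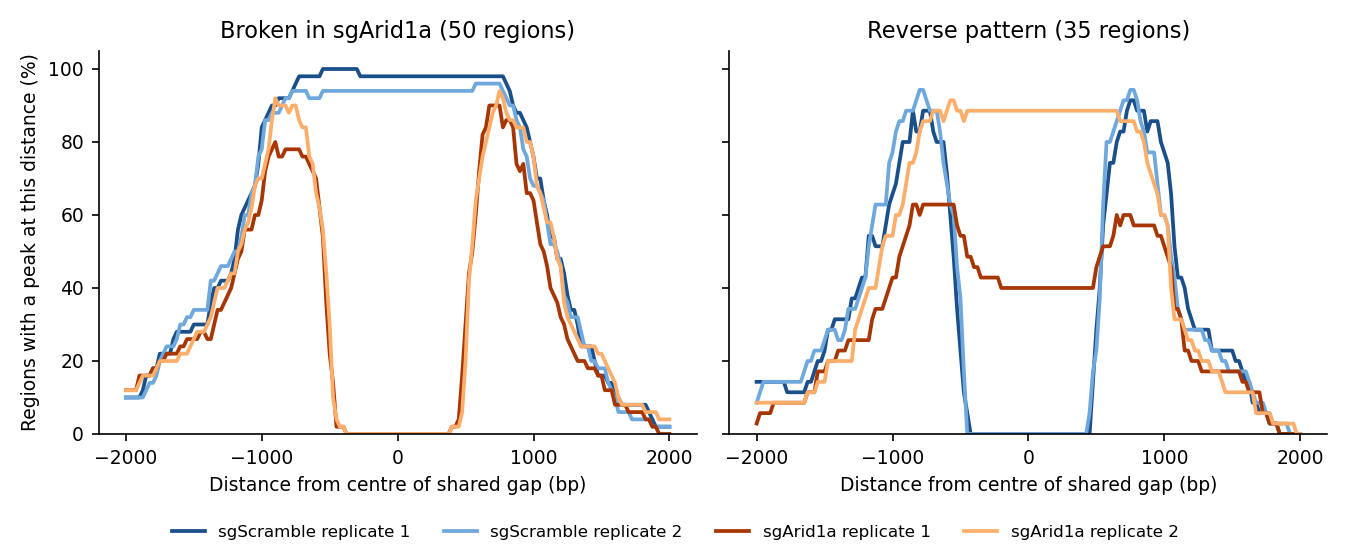
Share of regions (%, y axis) with a peak at each distance (bp, x axis, in genome order) from the centre of the gap shared by the lists that have 2 pieces, for 50 broken regions with a shared gap (left) and 35 reverse regions (right); each line is 1 library. In the broken regions both sgScramble lines stay high across the gap (98% and 94% at its centre), whereas in the reverse regions the sgArid1a replicates stand apart (40% and 88.6%). The absence of peaks at the centre in the lists with 2 pieces, and a peak there in at least 1 other list, are set by the rule.

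Single libraries also split peaks, and sgArid1a replicate 1 did so most. Among distal regions with 1 peak in the other 3 lists, 244 were split in sgArid1a replicate 1 alone, 83 in sgArid1a replicate 2 alone, 91 in sgScramble replicate 1 alone and 122 in sgScramble replicate 2 alone. Outside the broken and reverse regions, the distal regions with a peak in all lists had a mean of 1.006 ± 0.00155 peaks in sgScramble and 1.008 ± 0.00391 in sgArid1a libraries (SD, n = 2 each). The difference of 0.00172 was within the spread between replicates (exact two-sided permutation p = 0.667, where 2 libraries against 2 cannot go below 0.333). Without sgArid1a replicate 1 the difference was -0.00112. Dropping a library also moved the count of broken regions, to 142 without sgArid1a replicate 1, 292 without sgArid1a replicate 2, 92 without sgScramble replicate 2 and 76 without sgScramble replicate 1, since fewer lists then had to show the pattern.

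List strength moved with the groups as well. The median −log10 p of a peak was 9.20 and 9.02 in the sgScramble lists and 7.06 and 7.62 in the sgArid1a lists. The sgScramble lists held 9088 and 9067 peaks of at least 1598 bp, the shortest stretch that both control peaks shared in a region where both crossed the gap, and the sgArid1a lists 5610 and 7328. The part of this in the broken pattern was not tested.

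All 51 regions had exactly 2 pieces in each sgArid1a list. The merged regions were 1989 to 4759 bp long, with a median of 2630 bp. Peaks covered a median of 2443 and 2370 bp in sgScramble replicates 1 and 2, and 1125 and 1186 bp in sgArid1a replicates 1 and 2. Where both control peaks crossed the gap, the distance from the outer edge of one piece to that of the other was a median of 96.4% (sgArid1a replicate 1) and 99.3% (replicate 2) of the mean sgScramble peak length, with ranges of 61.5% to 129% and 81.7% to 133%. A loss inside the region is set by the rule, and in single regions, such as that in Grhl2, an edge was lost as well. In the reverse regions, peaks covered medians of 1221 and 1324 bp in the sgScramble lists, and 1181 and 2085 bp in sgArid1a replicates 1 and 2.

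**Figure D2:**
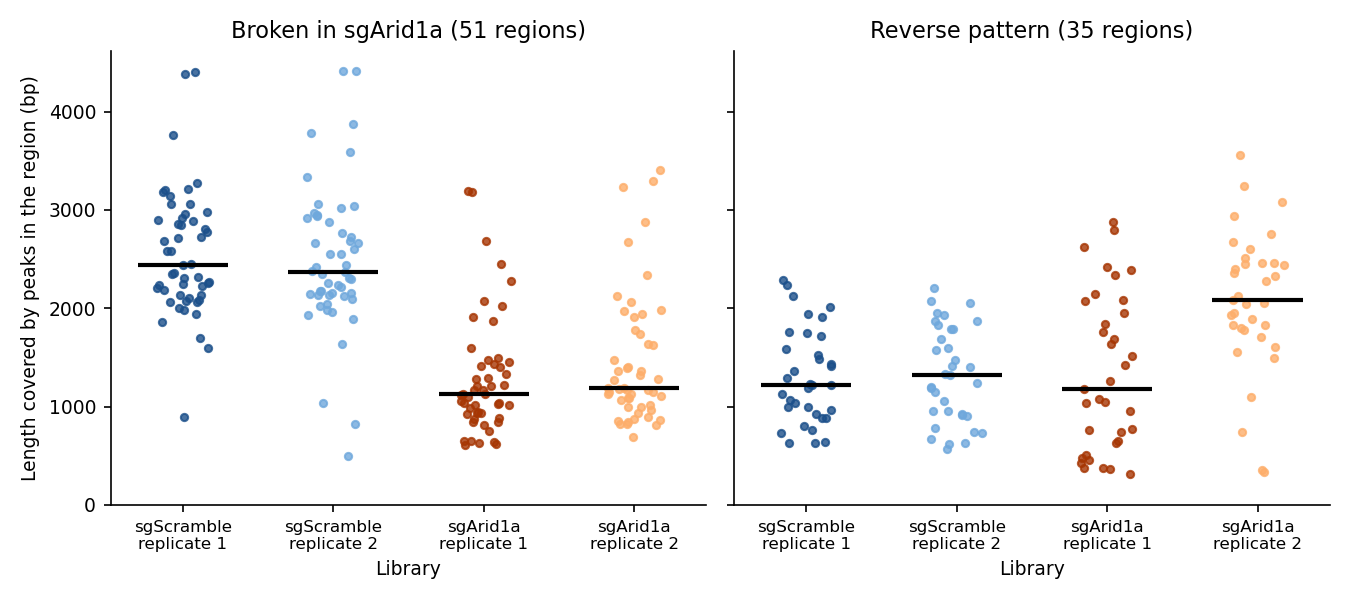
Length covered by peaks in each region (bp, y axis) in each library (x axis), for the 51 broken regions (left) and the 35 reverse regions (right); each point is a region and the black line is the median. In the broken regions the medians are 2443 and 2370 bp in sgScramble and 1125 and 1186 bp in sgArid1a libraries.

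The gap was 917 to 2130 bp long in sgArid1a replicate 1 (median 1107 bp) and 983 to 1984 bp in replicate 2 (median 1125 bp). The lower quartiles were 1002.5 and 1014.5 bp, near the smallest distances between peaks in these lists (908 and 983 bp). The gaps of the 2 lists overlapped in 50 of the 51 regions (98.0%, 95% interval 89.6% to 99.95%), and the overlap made up at least 80% of each gap in 38. It was 46.4% of the longer gap at Ski and 47.9% at Lgr6. Gaps of about 1 kb between pieces that touch the same control peak have little room to lie apart, so their overlap follows in large part from the rule, here and in the reverse regions. The common gap had a median of 1024 bp. Where both control peaks crossed the gap, its centre lay between 0.474 and 0.594 of the way along the common control stretch in the middle 50% of regions, with a range of 0.326 to 0.714. A gap of such length between pieces must fall near the middle of a peak of about 2 kb, so this position follows in part from the rule. The exception was the region inside Cfap54, a gene for a cilium protein (chr10:93032168-93036644), where gaps of 946 and 1074 bp did not overlap at all. In the reverse regions the 2 sgScramble gaps overlapped in 35 of 35.

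The pieces were unequal. In sgArid1a replicate 1 the longer piece had a median of 700 bp and the shorter of 410 bp, and in replicate 2 these were 840 and 415 bp. The longer piece lay on the same side in both lists in 34 of 51 regions (66.7%, 52.1% to 79.2%). Strength was read as the percentile of the authors' fold within each list, where 100 is the strongest peak. The median stood at 29.7 and 34.5 for the control peaks in sgScramble replicates 1 and 2. It was 53.1 and 49.9 for the stronger piece in sgArid1a replicates 1 and 2, and 10.5 and 15.3 for the weaker piece. The stronger piece stood higher in its list than the mean percentile of the control peaks in 39 and 43 of the 51 regions, and the weaker piece stood lower in 44 and 46. Taking the higher and the lower of 2 pieces favours this order, and the folds refer to stretches of different length. By −log10 p the order was another: the higher value of the pieces was below both sgScramble peaks in 36 regions in sgArid1a replicate 1 and in 22 in replicate 2. The weaker pieces were close to the limit of the lists, with a median −log10 p of 4.35 and 5.38.

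**Figure D3:**
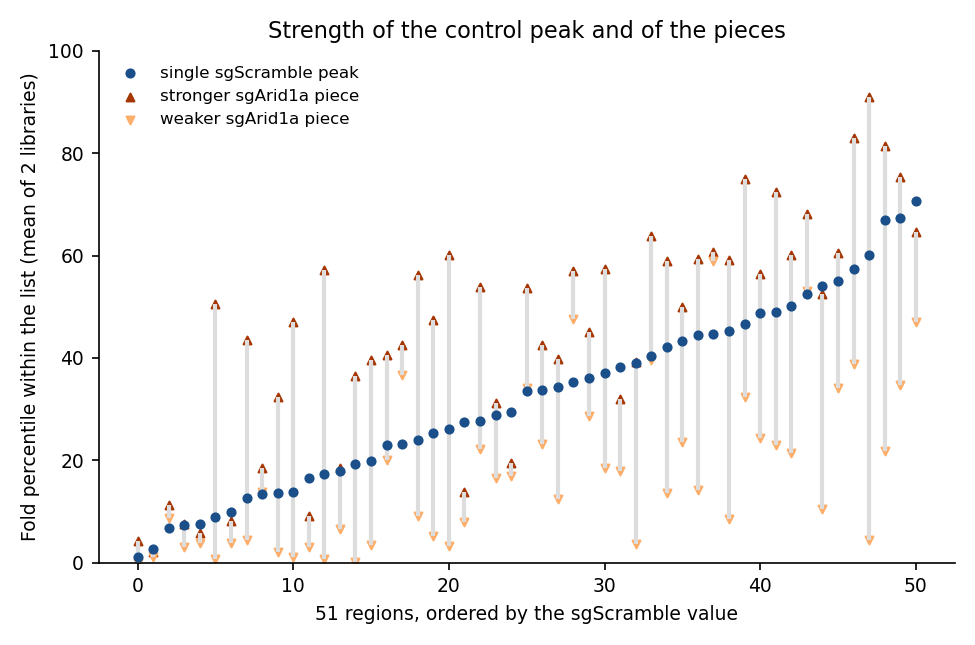
Fold percentile within its list (y axis, mean of the 2 libraries of a group) of the single sgScramble peak and of the stronger and weaker sgArid1a pieces at each of the 51 regions (x axis, ordered by the sgScramble value); grey lines join the 2 pieces. The stronger pieces mostly lie above and the weaker pieces mostly below the control peak of the same region.

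By fold, most control peaks stood in the lower part of their lists, but by −log10 p their medians of 10.3 and 10.9 in sgScramble replicates 1 and 2 were above the list medians of 9.20 and 9.02. Of the 51, 9 had a mean sgScramble percentile above 50, 19 were below 25 and 6 below 10. The 2832 distal regions with 1 peak in every list and a common control stretch of at least 1598 bp had a median of 45.7 (quartiles 30.0 and 59.9), beside 33.6 (17.7 and 45.0) for the broken regions. That comparison set was chosen after the values were seen. It was not matched in length: 1730 of its regions had a stretch under 2000 bp, beside a median of 2301 bp for the broken regions.

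Long control peaks were broken most often. Of distal regions with 1 peak in each sgScramble list and at least 1 in each sgArid1a list, the broken share was 0.236% (6 of 2539) where the stretch common to both control peaks was from 1500 to under 2000 bp long, 2.53% (21 of 830; 1.57% to 3.84%) from 2000 to under 2500 bp, 4.55% (13 of 286; 2.44% to 7.65%) from 2500 to under 3000 bp and 4.24% (7 of 165; 1.72% to 8.55%) at 3000 bp or more. A shorter peak has little room for a break of about 1 kb, so this order is set in part by the rule. For the reverse pattern the shares at the 3 longest classes were 1.06% (5 of 470), 0.641% (1 of 156) and 0 of 85, the last with an upper limit of 4.25%. In the shorter classes the order turned. The reverse share was 0.332% (5 of 1505) from 1500 to under 2000 bp, against the 0.236% broken. From 1000 to under 1500 bp it was 0.0791% (4 of 5054) against 0.0129% (1 of 7775). Under 1000 bp it was 0.0619% (20 of 32327) against 0.0107% (3 of 28132). Of all common stretches of at least 1598 bp, 47 of 3113 (1.51%) were broken, and 11 of 1760 (0.625%) showed the reverse. That limit was taken from the broken regions, which favours their share.

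**Figure D4:**
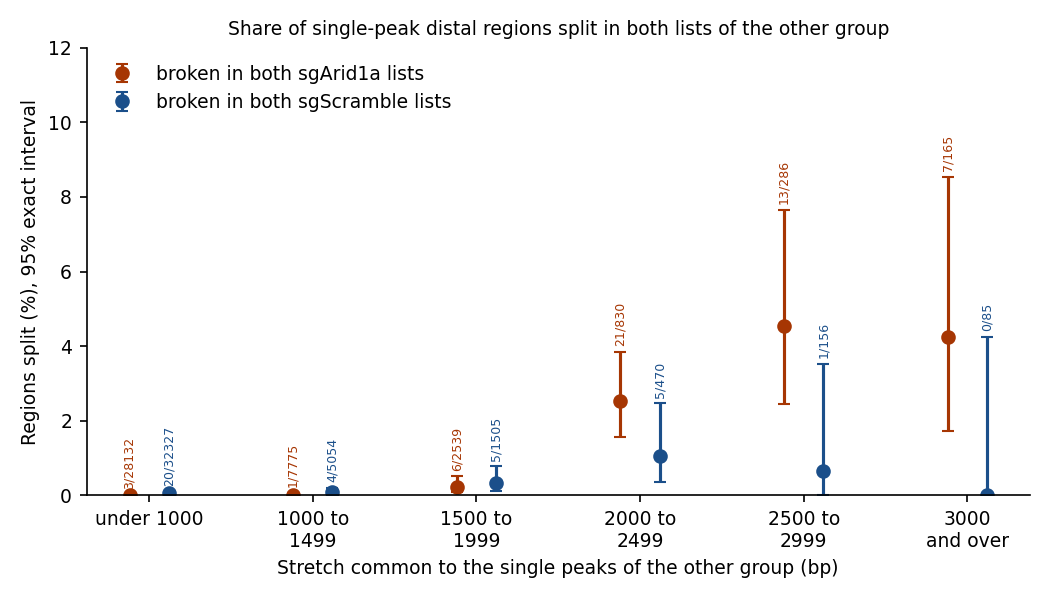
Share of distal regions split in both lists of a group (%, y axis, with 95% exact binomial intervals) by the length of the stretch common to both single peaks of the other group (bp, x axis); numbers give split regions over all regions of the class. From 2000 bp on, the share broken in sgArid1a is 2.53% to 4.55%, and the share broken in sgScramble is 1.06% or less with wide intervals. Under 2000 bp the share broken in sgScramble is the higher in each class.

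The strongest region lay between genes, 46501 bp from an end of Cd180, a Toll-like receptor relative of B cells (chr13:102644816-102647046). Its control peaks were 2085 and 2099 bp long in sgScramble replicates 1 and 2, with a mean fold percentile of 70.7. sgArid1a replicate 1 had pieces of 525 and 509 bp and replicate 2 pieces of 425 and 658 bp, with 1027 bp uncovered in both. A single peak crossed the gap in both control libraries, and each sgArid1a library kept a short piece at either side.

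At Kcnk5, a background potassium channel gene, the region lay inside the gene (chr14:20143644-20146002). The control peaks were 2353 and 2344 bp long, at folds of 4.59 and 4.72. In both sgArid1a lists the left piece (left and right are in genome order) was the stronger, at folds of 4.83 and 5.91 against 2.99 and 2.96 for the right piece. The weak side was the same in both libraries.

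The region near Stat4, the gene of a transcription factor that acts downstream of interleukin-12, carried the Gm31812 start shown above (chr1:52111334-52114278). Its control peaks were 2773 and 2945 bp long at folds of 4.57 and 4.16. The right piece, which holds the start, was 917 and 954 bp long at folds of 6.40 and 5.76 in sgArid1a replicates 1 and 2. The left piece was 288 and 516 bp long at folds of 2.40 and 2.60. The gap of 1316 bp common to both lists was among the 5 longest. Here the piece over the annotated start was strong in both sgArid1a libraries, and the far piece was weak.

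Il17rd encodes an inhibitor of FGF receptor signalling. Its region (chr14:27029485-27031790), 7174 bp from the gene, had control peaks of 2134 and 2139 bp and a common gap of 1208 bp. The pieces were 377 and 249 bp long in sgArid1a replicate 1 and 575 and 278 bp in replicate 2, so the left piece was the longer in both. Together they covered 626 and 853 bp.

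Short pieces on both sides were also seen inside Zfhx3, a homeobox transcription factor gene, 312185 bp from its nearer end (chr8:108647380-108649451). The pieces there were 263 and 347 bp long in sgArid1a replicate 1 and 528 and 407 bp in replicate 2, against control peaks of 2067 and 1985 bp. Near Ddx11, a DNA helicase gene, the region (chr17:66233399-66235727) lay 81225 bp from the gene. Both pieces kept a strength near that of the control peak: folds were 4.20 and 3.92 in sgScramble, 4.70 and 4.15 for the pieces in sgArid1a replicate 1, and 4.41 and 3.71 in replicate 2. At this region the break was not accompanied by a weak second piece.

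Near Itga6, which encodes a laminin-binding integrin subunit, the region (chr2:71764726-71767512) lay 19374 bp from the gene. The control peaks were 2256 and 2766 bp long and the shared gap 1264 bp. The right piece had the higher fold in both sgArid1a libraries, at 4.22 and 4.17 against 3.14 and 2.80. Inside Clip2, a gene for a microtubule-binding linker protein (chr5:134505644-134507922), the left piece had the higher fold, at 4.66 and 4.89 against 3.26 and 2.76. Its control peaks had folds of 3.98 and 3.88.

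In the regions near Gabrr3, a GABA receptor subunit gene, and En2, a homeobox gene of the midbrain and hindbrain, the control libraries disagreed. At Gabrr3 (chr16:59401191-59404320) the peak was 3065 bp long in sgScramble replicate 1 but 828 bp in replicate 2, where it covered only the right piece. At En2 (chr5:28122802-28125070) it was 894 bp long in sgScramble replicate 1 and 2043 bp in replicate 2. Only 1 control peak crossed the gap in each of these. The Gabrr3 gap, 1778 bp common to both sgArid1a lists, was the longest of all 51.

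The 5 regions with the longest stretch common to both control peaks, Scd2, Notch1, Csrp1, Bod1 and Lhx2, had low folds. Near Scd2, a stearoyl-CoA desaturase gene (chr19:44310925-44315343), control peaks of 4404 and 4415 bp stood at a mean percentile of 9.02. The right piece reached folds of 3.87 and 3.80 in sgArid1a replicates 1 and 2 and the left piece, over 2 kb long, 2.09 in both. Near Notch1, the receptor gene (chr2:26531786-26536252), control peaks of 4381 and 4411 bp at folds of 2.68 and 2.56 were replaced by 4 pieces in all, of 1300 to 1882 bp, at folds of 2.36 to 2.71. The folds of whole and pieces overlapped. By −log10 p all pieces were lower, at 6.30 to 8.65 against 13.3 and 11.6 for the control peaks.

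The Csrp1 region (chr1:135728688-135732494) lies inside the gene of a LIM-domain protein of the cytoskeleton. Its left piece, which holds the internal start, was 1946 and 1965 bp long at folds of 3.19 and 3.31, and the right piece was 740 and 708 bp long at 2.43 and 2.31. The gaps of the 2 libraries were 987 and 1002 bp long, and the whole of the shorter one lay in the longer. Near Lhx2, a LIM-homeobox gene (chr2:38375549-38378761), 1753 bp were uncovered in both sgArid1a lists. All 4 of its pieces had a higher fold (3.33 to 3.61) than either control peak (3.02 and 3.17). By −log10 p the pieces were not raised, at 6.58 to 7.93 against 7.75 and 9.02. Near Bod1, a gene for chromosome alignment at mitosis (chr11:31729900-31734658), the right piece was 788 bp long in sgArid1a replicate 1 and 2263 bp in replicate 2, where it reached past both control peaks.

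**Figure D5:**
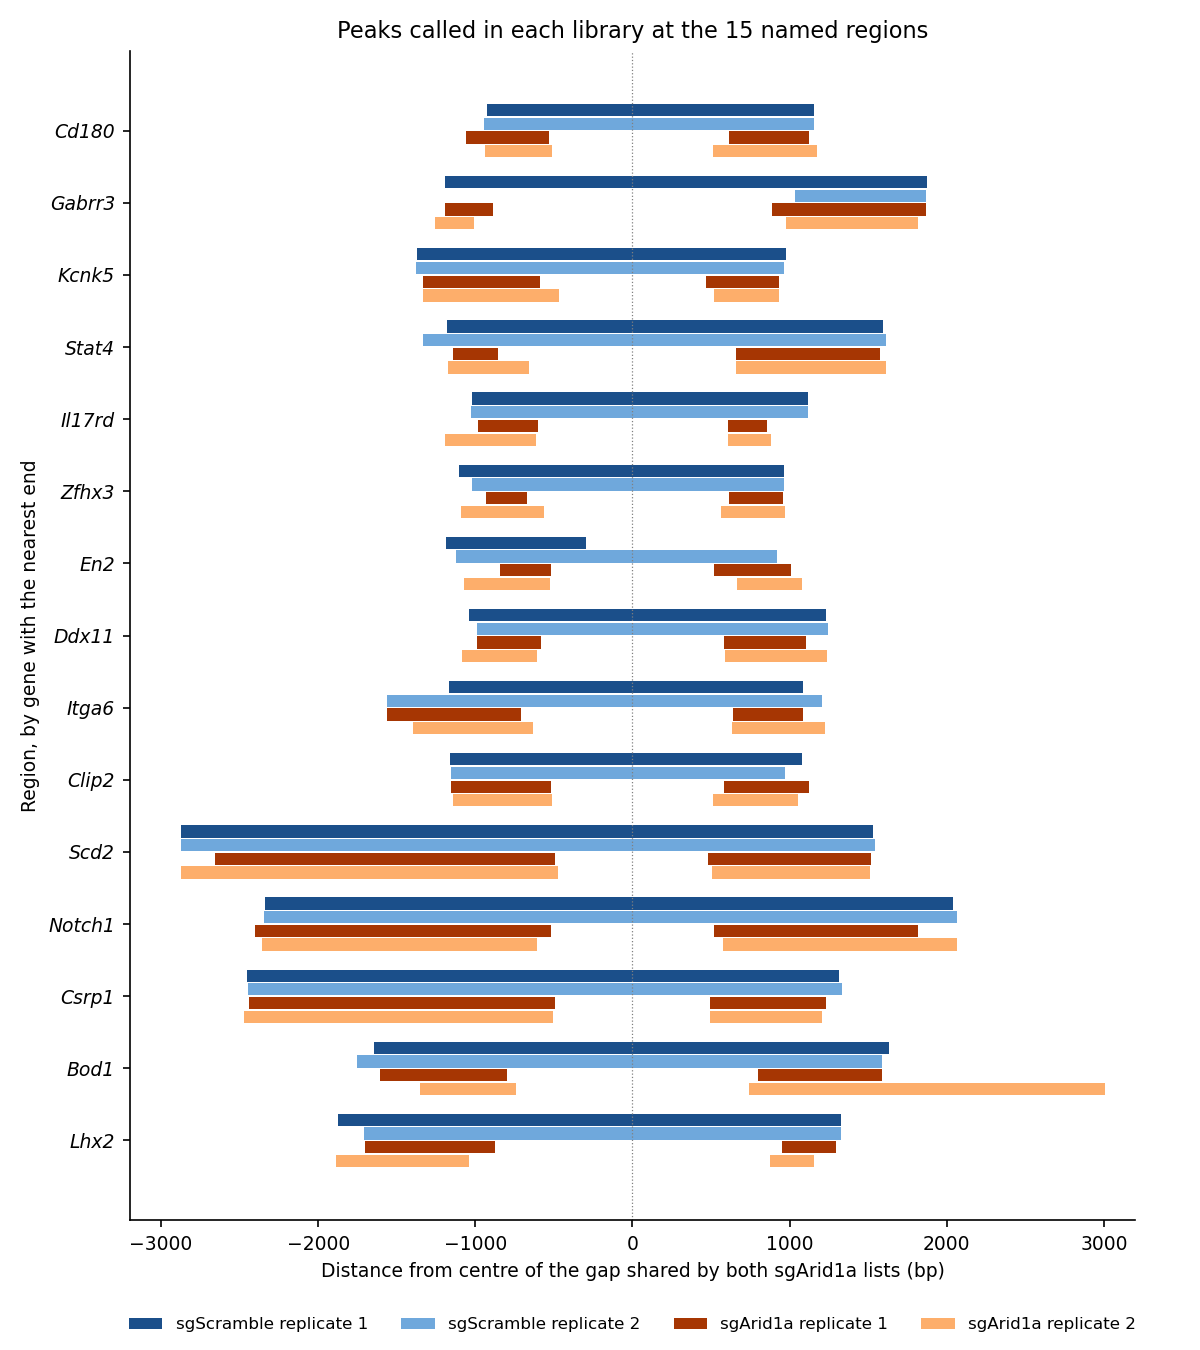
Peaks called in each library (bars, 1 colour per library) at the 15 named regions, placed by distance (bp, x axis, in genome order) from the centre of the gap shared by both sgArid1a lists and named by the gene with the nearest end. The sgScramble bars run across the gap in both libraries at 13 regions and in 1 library at Gabrr3 and En2, where the other bar is 828 or 894 bp long.

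A region inside Dusp16, a phosphatase gene that restrains MAP kinases, was the only one of the MAP kinase feedback list (chr6:134791335-134794642), and it holds the 2 CpG-rich starts shown above. Control peaks of 3215 and 2916 bp were replaced by 2071 and 2065 bp of covered length, and the gap common to both sgArid1a lists was 1070 bp. Itga6 was the only gene of the adhesion and matrix list. The melanocyte lineage, BAF and PBAF subunit, AP-1, Hippo, TGF-beta, Wnt and type I interferon lists had no broken region. In all, 2 broken and 0 reverse regions fell to genes of the 9 lists, beside 634 of the 29044 distal regions assigned within 50 kb that had 1 peak in each sgScramble list and at least 1 in each sgArid1a list. With assignment within 10 kb the count was 0 of 21 broken regions, beside 196 of 12071 such distal regions. Within 50 kb, the lists without a broken region held from 28 (type I interferon) to 106 (melanocyte lineage) of the 29044 regions. With 42 broken regions assigned, a count of 0 in these lists is near that share and is no result about their genes.

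No gene had more than 1 broken region. Within 50 kb, 42 regions were assigned to 42 genes and 9 regions lay farther from any gene end. The 28 reverse regions assigned had 28 other genes, as may be with so few regions, and beyond 50 kb Auts2 was the nearest gene of both a broken and a reverse region. The nearest gene is a label of position, since distal elements need not act on it. Of the 51, 22 overlapped a protein-coding gene, 5 a lncRNA gene and 2 a pseudogene, and 24 overlapped no gene of any kind. Hosts included Ski, a corepressor of TGF-beta signalling, Chd2, a chromatin remodeller, Grhl2, an epithelial transcription factor, Auts2, Rapgef4, Ppm1h, Tex2, Acot11 and Rab8b, which were named after their values were seen. Whether a region lay in an exon or an intron was not read here.

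Distances and hosts were set beside the 2832 regions with 1 peak in all lists and a common control stretch of at least 1598 bp. These wide regions were not matched in length to the broken regions, and 1730 of them had a stretch under 2000 bp. Of the broken regions, 43.1% had their midpoint in a protein-coding gene (22 of 51, 29.3% to 57.8%), against 60.1% (58.3% to 61.9%) of the wide regions. The share was 83.3% against 59.3% at control stretches from 1598 to under 2000 bp (5 of 6 broken regions), 38.1% against 60.2% from 2000 to under 2500 bp and 40% against 63.8% at 2500 bp and more. In these classes the broken intervals (35.9% to 99.6%, 18.1% to 61.6% and 19.1% to 63.9%) include the value of the wide regions. A distance of over 1 kb to 10 kb from a gene end was found for 41.2% (27.6% to 55.8%) of broken and 33.6% of wide regions, and a whole RefSeq promoter window for 7.84% (4 of 51, 2.18% to 18.9%) and 16.0% (454 of 2832). These are shares of regions in 4 libraries and were not tested.

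The 51 regions lay on 18 chromosomes, with 7 on chromosome 2, 5 on chromosome 1 and 4 each on chromosomes 4, 6 and 10, and none on chromosomes 3, 18 and Y. Chromosome 2 also had the most regions that could have been broken (7 of 3419, 0.205%). The highest share was on chromosome 14 (3 of 1244, 0.241%), beside 0.128% over all chromosomes. Chromosomes 3, 18 and Y had 1982, 1152 and 4 regions that could have been broken, so few would be broken at that share. Only 1 pair lay within 100 kb of each other, the regions near Rer1 and inside Ski on chromosome 4, which were 70417 bp apart. Next came those near Itga6 and in Rapgef4 at 317958 bp. The region near Sfi1 (chr11:3125423-3127629) overlaps the pseudogene Pisd-ps1, where reads may be shared with near-identical copies, and is uncertain. Its control peaks had folds of 2.11 and 2.07, at fold percentiles of 1.27 and 1.15 within their lists, but at a −log10 p of 35.8 and 36.3.

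At the distance limit of the rule, the nearest member lay 1364 bp from an end of Stx7 (chr10:24190325-24192448), and the nearest region with the same pattern that was left out lay 725 bp from Nolc1 (chr19:46086268-46088795). Within 1 kb of gene ends, 23 regions were broken in both sgArid1a lists and 13 showed the reverse. These are counts without the number of regions that could show each pattern, so they cannot be set against the distal shares.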

How the data were processed

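Omni-ATAC libraries of B16F10 cells, 2 with a scrambled guide and 2 with a guide against Arid1a, were made from 50000 cells per reaction, per the labels' protocols. The authors deposited 1 broad peak list per library. Each deposited peak carries the authors' score, their fold, which is a ratio to background, and their −log10 p-value. The −log10 q-value of each peak is likewise the authors'. The submitters' processing notes name STAR 2.5.3a, HOMER, GRCm38 and mm10 without roles. How peaks were called and joined was not given in the sources used here. No read counts are listed, so depth is unknown.

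Peaks on chromosomes 1 to 19, X and Y that overlapped by at least 1 bp were merged across the 4 lists. RefSeq bounds of 21887 protein-coding genes (GRCm38.p6), without exons, gave the gene ends. A region took the gene with the nearest end, whichever end that was. Fold percentiles were ranked within each list. Shares carry 95% Clopper-Pearson intervals, which cover counting error over regions only. Group means of libraries were compared by an exact two-sided permutation test. Named regions were the 10 strongest by mean sgScramble fold percentile, the 5 with the longest stretch common to both control peaks, the 5 with the longest shared gap and the 5 with the most pieces. All regions tied on pieces, so that rank added none. Genes were to be named where they had 3 or more regions, and up to 4 per gene list.

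The members, the 9 gene lists (200 symbols, 2 unmatched) and the tests were chosen with earlier results of these data known. The alternatives were a stricter q, lists of equal length (65353 peaks), the upper 50% by fold, merging within 1 kb, peaks of at least 500 bp, joining of close peaks, other distances to gene ends, pieces at least 50% inside the single peak, assignment within 10 kb and leaving out each library. Joining within 1.5 kb, the count of strictly reverse regions, the settings of the strict count beyond those planned, and the comparison with wide regions were added after the data were seen. The planned motif comparison needs genome sequence and was not run. The merging and counting steps were tested on simulated data. Python 3.11.15, numpy 2.4.6, pandas 2.3.3, SciPy 1.17.1 and matplotlib 3.10.9 were used.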

Additional observations from a re-analysis of the deposited data

How the results depend on the processing

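Under 17 other settings, broken regions outnumbered reverse regions in 13. Where a count moved by over 1.5 times, the counts of broken, reverse, strictly broken (each control peak overlaps both pieces) and strictly reverse regions are given. With a −log10 q of at least 5 they were 9, 15, 9 and 2, with peaks of at least 500 bp 16, 11, 11 and 4, and with the upper 50% by fold 0, 1, 0 and 0. With a −log10 q of at least 2, the broken count was 28 and the strict count 25. With lists of equal length the reverse count was 12 and the strictly reverse count 5. Merging within 1 kb gave 102 reverse regions, pieces at least 50% inside the single peak gave 5, and any distance from gene ends gave 17 strictly reverse regions. Without 1 of the 4 libraries the ranges were 76 to 292 broken, 28 to 104 reverse, 76 to 238 strictly broken and 28 to 69 strictly reverse, since fewer lists had to agree. Joining peaks under 200 or 500 bp apart changed nothing, as no 2 peaks of a list were that close. The difference in mean peaks per distal region was -0.000704 with a −log10 q of at least 5, and ran from -0.00112 to 0.00414 without 1 library. Broken regions assigned to the gene lists within 10 kb numbered 0 of 21, beside 196 of the 12071 regions that could have been broken. Other causes were not tested. Same-numbered libraries did not deviate together in covered length (r = 0.0120 over 40218 regions). That cannot show whether they were prepared together, and the labels do not say. With the replicate number as a block, the difference in mean peaks was 0.00172 at an exact permutation p of 1, where 0.5 is the smallest possible. Counts of broken regions come from no test and have no paired form. Depth is unknown and limits which gaps a list can show.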
